A study of Citrullus lanatus with 6 samples.

Results

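The 22 genes described here are annotated watermelon genes that were read in every leaf library of well-watered control plants and almost nowhere in the libraries of drought-stressed plants. They were chosen by their read counts, with a sum of at most 5 counts over the 3 drought libraries and at least 20 counts in each of the 3 control libraries, among genes with an identifier of the Charleston Gray annotation. Those limits took 24 of the 18861 annotated genes, in a count table of 19742 genes that also holds gene models added by the authors. The rule left out 2 of them, the abscisic acid receptor gene PYL4 (ClCG07G004620) and a proline-rich extensin-like gene (ClCG09G010010), which leaves 22. The control limit alone was met by 13698 annotated genes and the drought limit alone by 1607, and the mirrored limits, off in control and on in drought, took 20 annotated genes. Since the counts of both conditions chose the genes, their difference between drought and control is the rule itself and is described here with no test.

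Leaves came from the cultivar Crimson Sweet, sampled at 8 DAT (days after the drought treatment began) from plants 89 days old. Drought-stressed pots were held at 35 ± 5% of water content and control pots at 95 ± 5%. Each condition had 3 plants with 1 RNA-Seq library per plant, so that p-values measure the spread between these plants. In RNA from whole leaves, fewer cells of a type and less RNA per cell cannot be told apart.

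Transcription factors bind DNA near other genes and change how much these are transcribed, and the MYB and ethylene-responsive (ERF) families are among the largest in plants. Abscisic acid is the hormone that leaves accumulate when water runs short, and its receptors of the PYR/PYL family, once they hold the hormone, block a group of protein phosphatases and so start the response that closes stomata. Most of the other genes in the set belong to families for sensing at the cell surface, protein turnover, vesicle traffic, the modification of sugars and lipids, or defence.

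The libraries held 21143377 to 22351455 counts in drought plants and 17907062 to 21852732 counts in control plants. Control replicate 2 stood apart from the other control libraries, with correlations of log2 CPM (counts over the TMM-scaled library total) of 0.884 and 0.847 to control replicates 1 and 3, against 0.942 between control replicates 1 and 3 and 0.948 to 0.968 among the drought libraries. The 10 genes described as photosynthetic were used as markers of leaf cells. Descriptions were at hand mostly for genes that the study itself had called, so a difference between drought and control is built into this list. The 10 genes summed to 7738 to 11245 CPM in drought libraries, and to 47391, 9863 and 35196 CPM in control replicates 1, 2 and 3. None of the 10 was at 0 in all libraries. Control replicate 2 thus lay within the drought range for these markers. Below, the median CV and the numbers called in the set, its neighbours and the family lists are given with and without it. The FPKM levels, SDs and ratios of single genes include it. With the quasi-likelihood test of edgeR and an adjusted p below 0.05, 1319 of 16318 tested genes were lower in drought (8.08%) and 866 were higher (5.31%).

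Of the 22 genes, 9 had no count in any drought library and 13 had 1 to 5 counts there in total. The drought counts of all 22 genes together came to 9, 15 and 18 in drought replicates 1, 2 and 3, against 2978, 1581 and 2872 in control replicates 1, 2 and 3. As a share of the library total, that was 0.405, 0.671 and 0.851 CPM without TMM scaling in the drought libraries and 142, 88.3 and 131 CPM in the control libraries. Over the set, no drought library was free of reads, with 4, 6 and 7 genes read in drought replicates 1, 2 and 3. By gene, 9 had their drought reads in 1 library alone, of which 3 had 1 read only, and 4 genes had theirs in 2 libraries. For a gene with no drought count, the smallest fold difference that the depth allows was computed from a floor of 3 counts over the drought group. For a gene with 1 to 5 counts, the ratio of control over drought is given with its 95% exact binomial interval, and both cover counting error only.

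**Figure D1:**
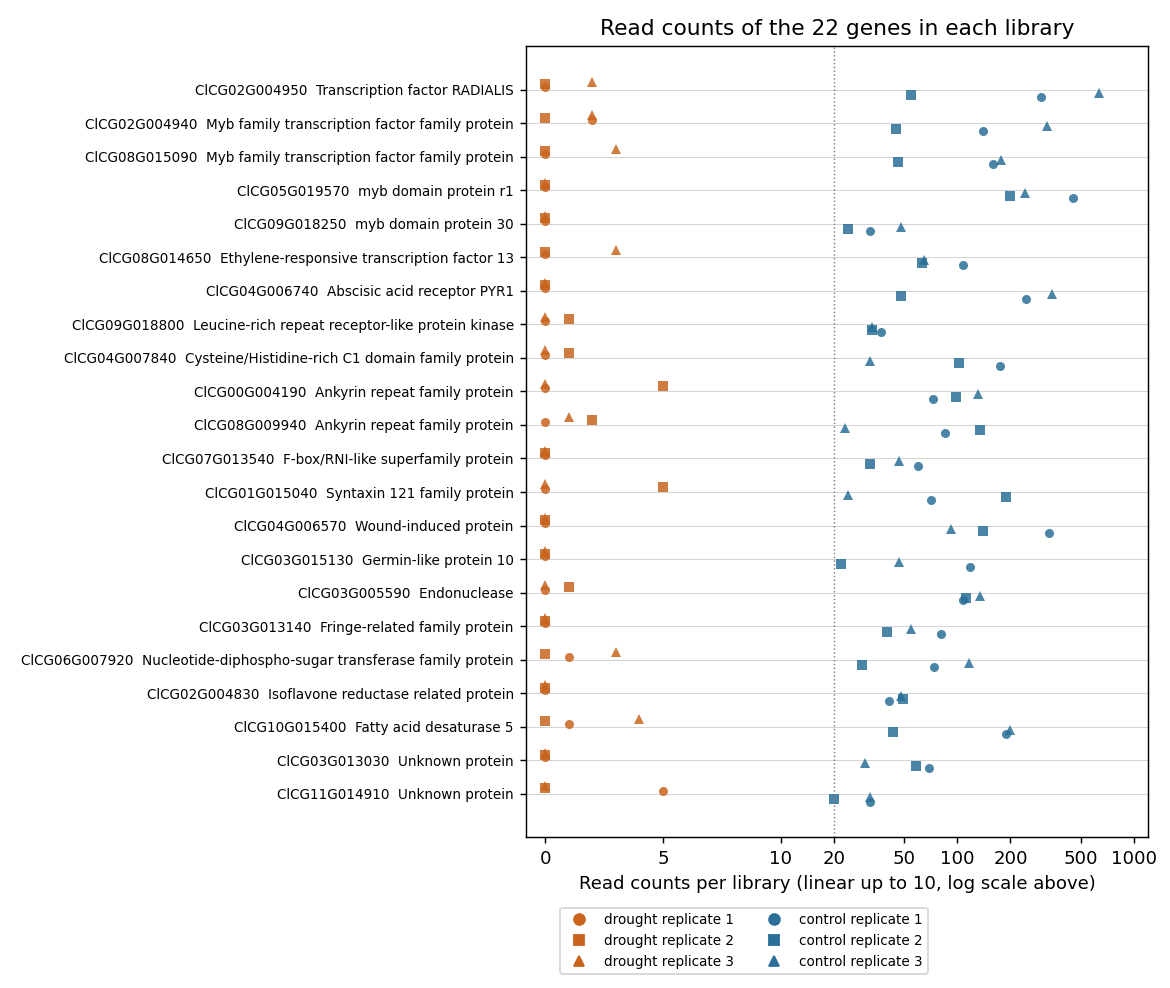
Read counts of each of the 22 genes (vertical axis) in each library (horizontal axis, linear up to 10 and logarithmic above), with drought libraries in orange, control libraries in blue, a symbol per replicate and a dotted line at 20 counts, the control limit. Drought counts lie between 0 and 5 for every gene, and control counts lie between 20 for ClCG11G014910 and 633 for the RADIALIS gene ClCG02G004950.

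Transcription factors made up 6 of the 22 genes, and 5 of these carry a MYB-type name. The highest control level of the set belonged to ClCG02G004950, described as RADIALIS (chromosome 2, 5257981 to 5259684, minus strand), a small MYB-like protein known from snapdragon, where it sets the dorsal side of the flower. It had 0, 0 and 2 counts in drought replicates 1, 2 and 3, against 298, 55 and 633 counts in control replicates 1, 2 and 3, which is 43.9 ± 37.0 FPKM in control (SD, n = 3) and a ratio of control over drought of 607 (168 to 5018). By SD over mean of CPM, the control plants differed more than for any other gene of the set, with replicate 3 far above replicate 2. Its neighbour ClCG02G004940, a Myb family gene (chromosome 2, 5249604 to 5249843, minus strand), had 2, 0 and 2 counts in drought and 139, 45 and 321 counts in control, or 33.1 ± 25.8 FPKM and a ratio of 155 (60.3 to 573). The order of the control plants was the same for both genes, with replicate 3 highest and replicate 2 lowest. A further Myb family gene, ClCG08G015090 (chromosome 8, 27759136 to 27759512, plus strand), had 0, 0 and 3 counts in drought and 159, 46 and 176 in control, or 17.9 ± 8.96 FPKM and a ratio of 156 (53.1 to 761). Here control replicates 1 and 3 stood close together and replicate 2 was again lowest.

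The remaining MYB genes had no count under drought. ClCG05G019570, described as myb domain protein r1 (chromosome 5, 31816138 to 31816809, minus strand), is named after an Arabidopsis regulator of abscisic acid responses and leaf ageing. Its counts were 0, 0 and 0 in drought and 452, 199 and 242 in control, with 21.7 ± 8.97 FPKM, so that it was at least 366-fold lower in drought, the largest bound among the 9 genes at 0. ClCG09G018250, described as myb domain protein 30 (chromosome 9, 35255866 to 35256986, minus strand), has an Arabidopsis namesake that acts in defence-related cell death and wax synthesis. With 0, 0 and 0 counts in drought and 32, 24 and 48 in control, it was among the weakest genes, at 1.92 ± 0.513 FPKM and at least 42.7-fold lower in drought. The ERF 13 gene ClCG08G014650 (chromosome 8, 27429935 to 27430570, minus strand) belongs to a family of ethylene-responsive DNA-binding proteins. It had 0, 0 and 3 counts in drought and 108, 63 and 65 in control, or 6.10 ± 1.78 FPKM and a ratio of 96.8 (32.7 to 473). Of these 3 genes, ClCG05G019570 and ClCG08G014650 were highest in control replicate 1, and ClCG09G018250 in control replicate 3.

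Genes for perception, signalling and traffic came next. ClCG04G006740, described as the abscisic acid receptor PYR1 (chromosome 4, 21590651 to 21591268, minus strand), had 0, 0 and 0 counts in drought and 246, 48 and 343 in control. Its control level was 16.2 ± 10.8 FPKM and it was at least 261-fold lower in drought, and control replicate 2 was well below the other control plants. ClCG09G018800, a leucine-rich repeat receptor-like protein kinase (chromosome 9, 36058743 to 36061286, plus strand), is of the kind that senses signals at the plasma membrane. It had 0, 1 and 0 counts in drought and 37, 33 and 33 in control, with 0.936 ± 0.0954 FPKM, the lowest level of the set, and a ratio of 127 (22.3 to 5056). It was also the longest gene of the set, and its control plants were nearly equal.

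ClCG04G007840 encodes a cysteine/histidine-rich C1 domain protein (chromosome 4, 22807571 to 22808461, plus strand), a zinc-binding type of domain. Its counts were 0, 1 and 0 in drought and 175, 102 and 32 in control, or 5.80 ± 3.89 FPKM and a ratio of 380 (67.8 to 15072). Control replicate 3 was the lowest plant for this gene. ClCG07G013540, an F-box/RNI-like protein (chromosome 7, 29977725 to 29980571, plus strand), belongs to a family that picks targets for ubiquitin ligases. It had 0, 0 and 0 counts in drought and 60, 32 and 47 in control, at 1.51 ± 0.364 FPKM and at least 57.0-fold lower in drought. ClCG01G015040, described as Syntaxin 121 (chromosome 1, 29321841 to 29323397, plus strand), has an Arabidopsis namesake that fuses vesicles with the plasma membrane. Its counts were 0, 5 and 0 in drought and 71, 190 and 24 in control, with 5.57 ± 5.50 FPKM and a ratio of 70.2 (29.7 to 218). Both within drought and within control, replicate 2 was the highest for the syntaxin gene.

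The set held 2 ankyrin repeat genes, whose repeats bind other proteins. ClCG00G004190 lies on the sequence not placed on a chromosome (chromosome 0 of the assembly, 9875802 to 9878647, plus strand) and had 0, 5 and 0 counts in drought and 73, 98 and 131 in control, at 2.97 ± 0.791 FPKM and a ratio of 74.3 (31.5 to 231). ClCG08G009940 lies on chromosome 8 (22740439 to 22743284, minus strand) and had 0, 2 and 1 counts in drought and 85, 134 and 23 in control, at 2.499 ± 1.92 FPKM and a ratio of 99.3 (33.6 to 485). Both have a gene length of 1679 bases and a span of 2846 bases, and they are the only 2 annotated genes of the table with that length and span. Control replicate 3 was the highest plant for ClCG00G004190 and the lowest for ClCG08G009940. Genes of this family may share reads, so the count of each is uncertain, and whether the 2 do was not tested.

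Among the genes for defence, enzymes and unknown proteins, ClCG04G006570 had the highest control count. It is described as a wound-induced protein (chromosome 4, 21390651 to 21391157, minus strand) and had 0, 0 and 0 counts in drought and 330, 139 and 92 in control, at 18.2 ± 11.6 FPKM and at least 230.2-fold lower in drought. ClCG03G015130, a germin-like protein of the cell wall space (Germin-like protein 10, chromosome 3, 30090968 to 30092369, minus strand), had 0, 0 and 0 counts in drought and 118, 22 and 47 in control, at 3.15 ± 2.44 FPKM and at least 76.7-fold lower in drought. For both genes control replicate 1 exceeded the other control plants by more than 2 times. ClCG03G005590, an endonuclease (chromosome 3, 5790307 to 5796402, plus strand), an enzyme that cuts nucleic acids, had 0, 1 and 0 counts in drought and 108, 112 and 135 in control, at 6.46 ± 0.683 FPKM and a ratio of 437 (77.9 to 17308). Its control plants differed little, and its drought value rested on 1 read.

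Sugar and lipid enzymes followed. ClCG03G013140, a Fringe-related protein (chromosome 3, 27067641 to 27072261, plus strand), shares its family name with an animal glycosyltransferase. It had 0, 0 and 0 counts in drought and 81, 40 and 55 in control, at 1.96 ± 0.593 FPKM and at least 72.2-fold lower in drought. ClCG06G007920, a nucleotide-diphospho-sugar transferase (chromosome 6, 10261401 to 10267512, plus strand), moves sugars from activated donors. Its counts were 1, 0 and 3 in drought and 74, 29 and 116 in control, at 3.27 ± 1.73 FPKM and a ratio of 67.4 (26.0 to 249.6). ClCG02G004830, related to isoflavone reductases of phenolic metabolism (chromosome 2, 5040726 to 5047599, minus strand), had 0, 0 and 0 counts in drought and 41, 49 and 48 in control, at 2.99 ± 0.522 FPKM and at least 56.6-fold lower in drought. Its spread between control plants, taken as SD over mean of CPM, was the smallest of the set.

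ClCG10G015400, described as fatty acid desaturase 5 (chromosome 10, 29927899 to 29929871, plus strand), is named after an Arabidopsis chloroplast enzyme that puts a double bond into a fatty acid of membrane lipids. It had 1, 0 and 4 counts in drought and 190, 43 and 199 in control, at 11.6 ± 6.52 FPKM and a ratio of 106 (45.2 to 329). It lies 337 bases from a gene model added by the authors on the other strand, and the counts were made without strand, so reads near their ends cannot be assigned with certainty. Finally, 2 genes are described as unknown proteins. ClCG03G013030 (chromosome 3, 26887260 to 26887500, minus strand), the shortest gene of the set at 195 bases, had 0, 0 and 0 counts in drought and 69, 58 and 30 in control, at 13.5 ± 5.60 FPKM and at least 64.4-fold lower in drought. ClCG11G014910 (chromosome 11, 28259461 to 28260830, minus strand) had 5, 0 and 0 counts in drought and 32, 20 and 32 in control, at 3.54 ± 0.569 FPKM. Its ratio of 20.7 (8.52 to 65.3) was the smallest, and it lay at both limits of the rule at once.

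By the rule every drought library lay below every control library in all 22 genes, which was also the case in 18.5% of all tested genes by CPM. In the same way edgeR called 21 of the 22 lower, beside 8.08% of all tested genes, with ClCG11G014910 the exception, and nothing is read from these counts because the contrast chose the genes. The number called was 10 without control replicate 1, beside 2.43% of tested genes, and 8, 14 and 10 without drought replicates 1, 2 and 3, beside 1.40%, 1.82% and 0.974%. Without control replicate 2 all 22 were called, beside 14.8% of tested genes.

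The genes nearest to the limits show how the set would change. Just inside, with 5 drought counts, were ClCG00G004190, ClCG01G015040, ClCG10G015400 and ClCG11G014910, and the lowest control counts were 20 in ClCG11G014910 and 22 in ClCG03G015130. Just outside, a beta-1,3-glucanase gene (ClCG03G010980) that cuts a cell wall polymer of fungi had 1, 5 and 0 counts in drought and 661, 1879 and 639 in control. A gene for a dehydration responsive element binding factor (ClCG01G005660) had 0, 0 and 7 counts in drought and 49, 21 and 131 in control. The cycloartenol synthase gene ClCG06G001600, at the start of plant sterol synthesis, had no drought count but 135, 19 and 112 in control, so that control replicate 2 kept it out by 1 count. Another MYB gene, described as myb domain protein 73 (ClCG08G015600), had no drought count and 50, 45 and 18 in control.

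The control plants did not read these genes evenly. The CV (SD over mean of CPM) between the 3 control plants had a median of 53.5% over the 22 genes, with a range of 10.4% to 91.6%. In 19 of the 22 it exceeded the median of 30.4% over all annotated genes that met the control limit. By TMM-scaled CPM the 22 genes lay at a median percentile of 10.3 among those genes, and no genes of equal level were compared. The most even genes were ClCG02G004830 (10.4%), the receptor-like kinase ClCG09G018800 (10.8%) and the endonuclease ClCG03G005590 (18.4%). The least even were the RADIALIS gene ClCG02G004950 (91.6%), its Myb neighbour ClCG02G004940 (87.5%), the syntaxin gene ClCG01G015040 (84.0%), the germin-like gene ClCG03G015130 (80.7%) and the PYR1 gene ClCG04G006740 (74.0%). From the lowest to the highest control plant, levels differed by a median of 2.97 times, and by 1.23 to 13.3 times over the 22 genes, against a median of 1.80 times over genes that met the control limit.

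Plants were ordered by TMM-scaled CPM. Control replicate 2 was the lowest control plant for 15 of the 22 genes, control replicate 3 for 5 and control replicate 1 for 2. Over all annotated genes that met the control limit, control replicate 2 was the lowest plant in 38.3% and the highest in 44.3%, whereas it was the highest for 2 of the 22, ClCG01G015040 and ClCG08G009940. In 7 of the 22 genes control replicate 2 was under 0.5 of the mean of the other control plants, and the same was found in 15.6% of genes that met the control limit. These 7 were ClCG02G004940, ClCG02G004950, ClCG03G015130, ClCG04G006740, ClCG06G007920, ClCG08G015090 and ClCG10G015400. Without control replicate 2 the median CV fell to 33.2% for the 22 genes, against 17.5% for genes that met the control limit. These orders depend on scaling, since the TMM factors were 0.886, 1.15 and 0.812 in control replicates 1, 2 and 3. By FPKM, which use library totals, control replicate 2 was also the highest for ClCG02G004830 (2.54, 3.56 and 2.86 FPKM). The same held for ClCG03G005590 (5.67, 6.90 and 6.81 FPKM) and ClCG09G018800 (0.968, 1.01 and 0.829 FPKM), for which it was the lowest by CPM. It was also no longer the lowest for ClCG05G019570 (32.0, 16.54 and 16.48 FPKM) and ClCG08G014650 (8.09, 5.53 and 4.68 FPKM). With library totals the median CV was 45.8% for the 22 genes, against 53.5% with TMM scaling. The summed photosynthetic markers were low in control replicate 2, as given above, and their part in its low values was not tested.

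**Figure D2:**
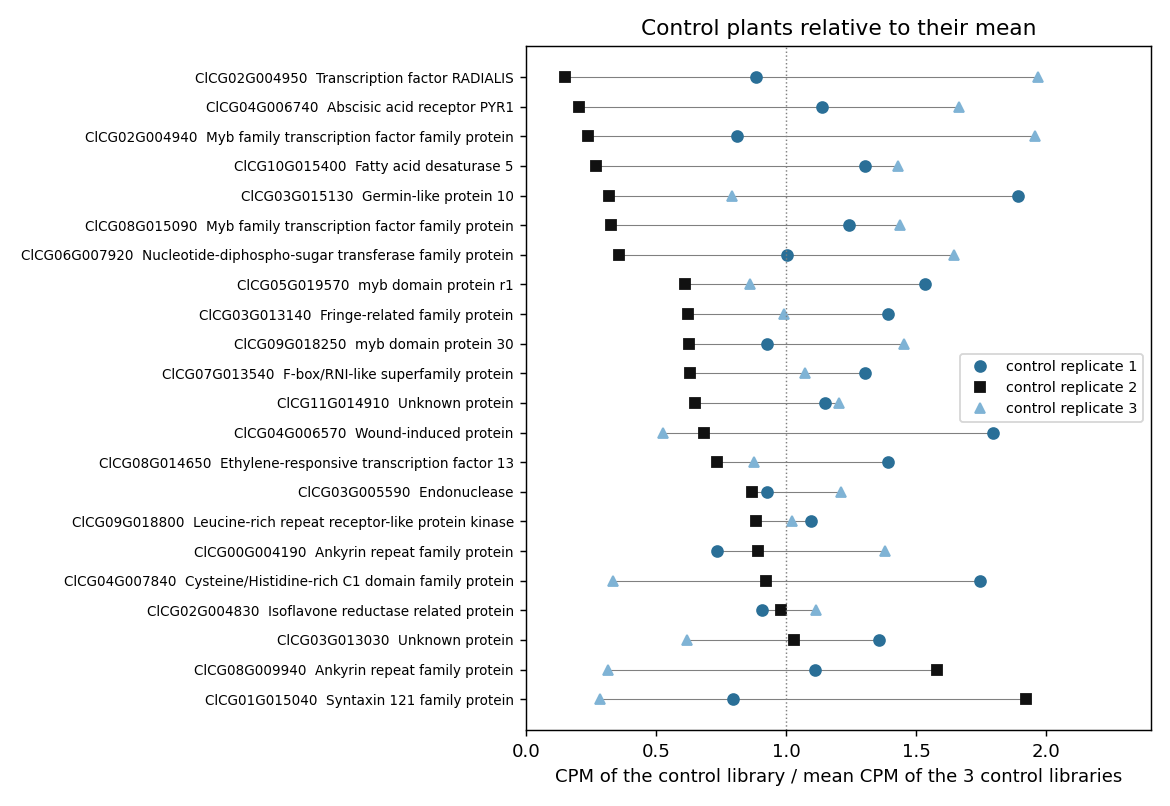
CPM of each control library divided by the mean CPM of the 3 control libraries (horizontal axis, no unit) for each of the 22 genes (vertical axis, ordered by control replicate 2), with a line from the lowest to the highest plant. Control replicate 2 (black squares) is the lowest point in 15 genes and the highest in 2.

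**Figure D3:**
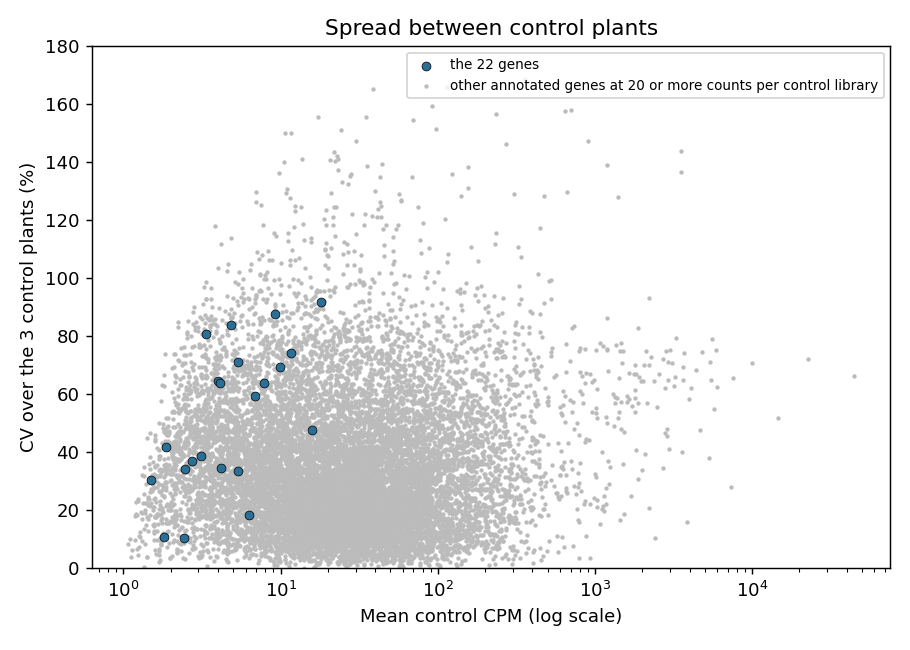
CV between the 3 control plants in percent (vertical axis) against mean control CPM (horizontal axis, log scale) for the 22 genes (blue) and for other annotated genes at 20 or more counts in each control library (grey). The 22 genes lie between 1.4999 and 18.1 CPM and between 10.4% and 91.6%.

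In control leaves the 22 genes were read at a low to moderate level. Mean control CPM had a median of 4.49, with a range of 1.4999 to 18.1, and 15 of the genes reached 100 counts in at least 1 control library. Per gene length, the median control level was 5.68 FPKM (0.936 to 43.9), against 14.0 FPKM over genes that met the control limit and 7.99 FPKM over all annotated genes, and 16 of the 22 lay below the first of these medians. The order in FPKM was led by ClCG02G004950, ClCG02G004940, ClCG05G019570, ClCG04G006570, ClCG08G015090 and ClCG04G006740, all of 672 bases or fewer. With SDs of 37.0 FPKM for ClCG02G004950 and 25.8 FPKM for ClCG02G004940, neighbours in the order of these 6 did not differ by more than their spread. The other end was held by ClCG09G018800, ClCG07G013540, ClCG09G018250 and ClCG03G013140, at 0.936 to 1.96 FPKM, and of these ClCG09G018800 lay below ClCG07G013540 in every control library.

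The genes of the set were short. Gene length as deposited had a median of 823.5 bases (195 to 1821), against 1593 bases over genes that met the control limit, whose quartiles were 1068 and 2312 bases, and 1420 bases over all annotated genes. Of the 22 genes, 16 (72.7%) were 1000 bases or shorter, compared with 21.8% of genes that met the control limit and 30.6% of all annotated genes. The span from start to end of the gene, introns included, had a median of 1479.5 bases (240 to 6874), against 4026.5 bases over genes that met the control limit. In 6 genes (27.3%) the span equalled the length, so that the gene model held no intron, against 10.2% of genes that met the control limit. These 6 were ClCG02G004940, ClCG04G006570, ClCG04G006740, ClCG04G007840, ClCG05G019570 and ClCG08G014650. At the other end, ClCG02G004830 spread a length of 768 bases over 6874 bases. Since a count limit depends on length as well as on level, these sizes are a description, with no test.

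**Figure D4:**
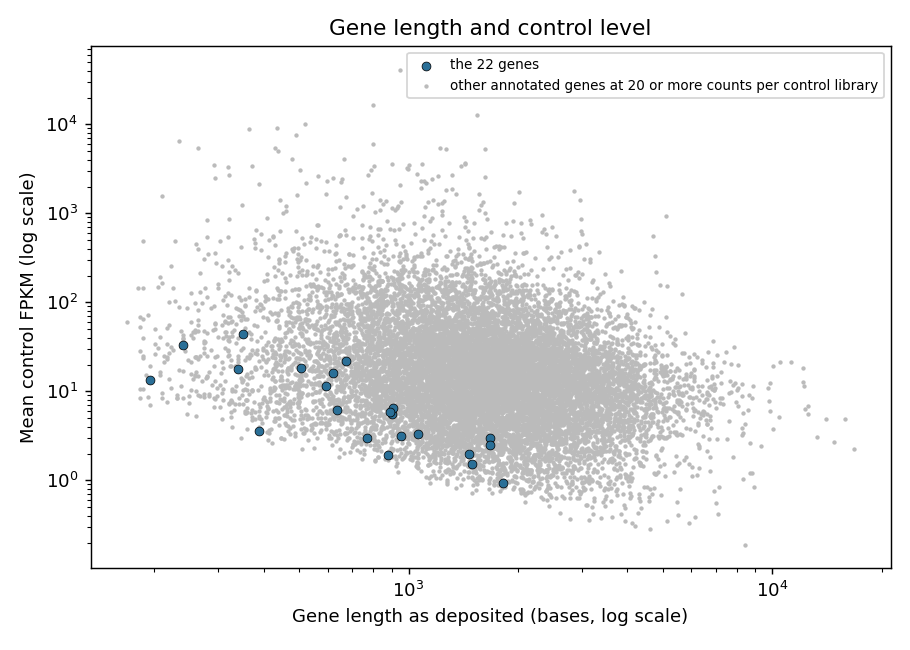
Mean control FPKM (vertical axis, log scale) against gene length in bases (horizontal axis, log scale) for the 22 genes (blue) and for other annotated genes at 20 or more counts in each control library (grey). The 22 genes lie between 195 and 1821 bases and between 0.936 and 43.9 FPKM, near the lower left edge that the count limit gives.

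The 22 genes lay on all 11 chromosomes and on the unplaced sequence. Chromosome 3 held 4, chromosomes 2, 4 and 8 held 3 each, chromosome 9 held 2, and the other chromosomes and the unplaced sequence held 1 each. In comparison, chromosome 3 holds 7.48% of all annotated genes of the table and chromosome 4 holds 5.23%, while chromosome 5, with 12.3%, and chromosome 1, with 11.5%, held 1 gene of the set each. ClCG02G004940 and ClCG02G004950, 8137 bases apart, were the only 2 genes of the set within 50 kb of each other, and this was also so at 10 kb and at 100 kb. Within 200 kb there were 3 such groups with 6 genes, which added ClCG03G013030 with ClCG03G013140 and the wound-induced gene ClCG04G006570 with the PYR1 gene ClCG04G006740. The nearest gene of any kind was at a median distance of 6113.5 bases (337 to 32590). No gene of the set overlapped another gene, 3 lay within 1 kb of one, and for 9 the nearest gene was on the other strand.

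The rule did not use the genes next to the set, and these could be tested. Of the nearest annotated genes on either side, 42 were not themselves in the set, and 39 of these were tested. By edgeR 9 of the 39 (23.1%) were lower in drought, beside 8.08% of all tested genes, and 0 were higher, beside 5.31%. At an unadjusted p below 0.05, 11 were lower and 2 higher by edgeR, and the share over all tested genes at that threshold was not counted. DESeq2 called 10 lower and 1 higher, beside 15.2% lower and 1635 higher of the 16318 tested genes by that tool. The median log2 fold change of drought over control was -0.60 over the 39 neighbours, against -0.03 over all tested genes. Below 0 were 27 of the 39, and the share of all tested genes below 0 was not counted. The number of neighbours called lower was 12 without control replicate 2, beside 14.8% of all tested genes. It was 3 without control replicate 1, beside 2.43%, and 3 without each of drought replicates 1, 2 and 3, beside 1.40%, 1.82% and 0.974%. In these settings with 3 neighbours, the number of genes called lower over the whole table was 164 to 406.

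On chromosome 2 genes of the same families near the MYB-type pair were also lower in drought. ClCG02G004960, another gene described as RADIALIS, on the same strand and 12.178 kb after ClCG02G004950, had 7, 17 and 13 counts in drought and 545, 487 and 1032 in control. In CPM that was 0.528 ± 0.205 in drought and 37.1 ± 18.5 in control (SD, n = 3 each), and the log2 fold change was -6.12 with an SE of 0.53 (adjusted p = 0.00349 by edgeR), a call made in every setting tried. ClCG02G004920, a Myb family gene 45.402 kb before ClCG02G004940, had 9, 1 and 9 counts in drought and 586, 32 and 307 in control (log2 fold change -5.90 ± 1.23, SE, adjusted p = 0.0259 by edgeR). Control replicate 2 was again the lowest control plant, and the call was lost without control replicate 1 (adjusted p = 0.0809 by edgeR) and without drought replicates 1, 2 and 3 (adjusted p = 0.0977, 0.0903 and 0.102 by edgeR).

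Further genes of the region are named here after their values were seen. The MYB gene ClCG02G004900, on the plus strand, had 351, 182 and 307 counts in drought and 1609, 1641 and 1337 in control (log2 fold change -2.73 ± 0.30, adjusted p = 0.00491 by edgeR), and was called in every setting. ClCG02G004870, described as a putative transcription factor and the nearest gene after ClCG02G004830 of the set, had 272, 86 and 468 counts in drought and 5285, 1069 and 4688 in control (log2 fold change -4.04 ± 0.87, adjusted p = 0.0278 by edgeR). Its call was lost without control replicate 1 (adjusted p = 0.0855 by edgeR) and without drought replicates 1, 2 and 3 (adjusted p = 0.111, 0.0782 and 0.0727 by edgeR). Whether the lower genes formed an unbroken run is not decided, since some genes between them were not tested. Between ClCG02G004900 and ClCG02G004920 lay ClCG02G004910, with 1, 1 and 6 counts in drought and 15, 0 and 0 in control, and a gene model added by the authors with 1, 9 and 6 counts in drought and 8, 16 and 43 in control, both too low to be tested. Beyond ClCG02G004960, the next annotated gene ClCG02G004980 did not pass the test (log2 fold change -0.25 ± 0.22, adjusted p = 0.483 by edgeR). Related genes may share reads, and how far that bears on these counts was not tested.

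**Figure D5:**
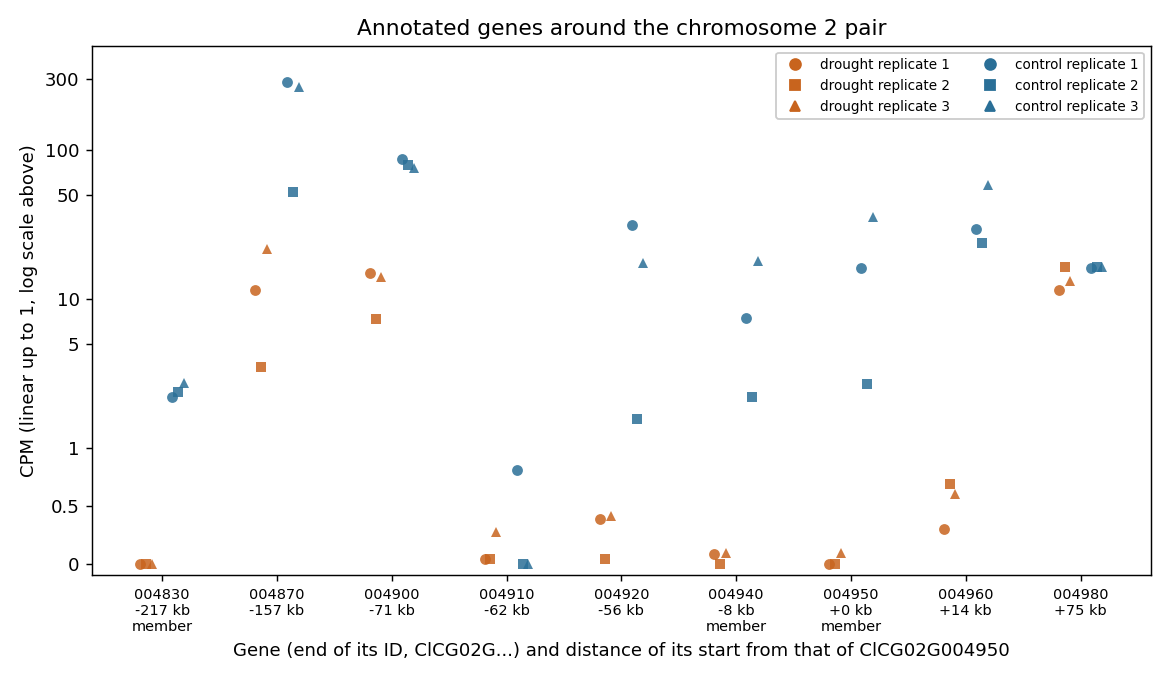
TMM-scaled CPM of annotated genes around ClCG02G004950 (vertical axis, linear up to 1 and logarithmic above), in gene order with the distance of each start in kb (horizontal axis), drought libraries in orange and control libraries in blue. Genes of the set carry the word member, and ClCG02G004900, ClCG02G004920 and ClCG02G004960 lie lower in every drought library than in any control library, whereas ClCG02G004980 overlaps.

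Other neighbours that passed the test, also named after their values were seen, were of varied kinds. The beta-1,3-glucanase gene ClCG03G013040, 8.094 kb after ClCG03G013030, had 186, 252 and 224 counts in drought and 1091, 1029 and 915 in control (log2 fold change -2.50 ± 0.21, adjusted p = 0.00349 by edgeR). ClCG08G009950, described as an embryogenesis transmembrane protein-like gene and 8.716 kb after the ankyrin gene ClCG08G009940, had 17, 21 and 10 counts in drought and 4678, 2738 and 1311 in control (log2 fold change -7.80 ± 0.61, adjusted p = 0.00349 by edgeR). Both were called in every setting tried. Beyond ClCG08G009950, also lower by edgeR were the WRKY gene ClCG08G009970 (log2 fold change -4.28, adjusted p = 0.0109), ClCG08G009990 (-1.96, adjusted p = 0.00883) and ClCG08G010030 (-5.68, adjusted p = 0.00938). These calls were lost without drought replicate 3, and that of ClCG08G009970 also without drought replicate 1. ClCG08G009920 and ClCG08G009930 before the ankyrin gene and ClCG08G009980 and ClCG08G010000 beyond it did not pass the test. The other neighbours called were ClCG04G007880, ClCG05G019580, ClCG07G013530 and ClCG09G018780, with log2 fold changes of -0.82 to -6.48, and each of these lost its call in 4 or more settings. Beside the C1 domain gene ClCG04G007840, ClCG04G007820, also described as a C1 domain gene and 1.718 kb before it, had no drought count and 15, 52 and 5 counts in control and was too low to be tested.

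The families that the set belongs to were then counted over genes with a description. Descriptions were at hand for 3511 genes, mostly genes that the study itself had called, so that a high share of calls is built into any such list. Of 3371 described genes that were tested, 1156 were lower and 862 higher in drought by edgeR, with a median log2 fold change of -1.33. The 24 genes that the limits took were set aside in the family counts that follow, since their direction was fixed by the rule. Among the other genes named MYB or RADIALIS, 17 of 24 tested genes were lower and 2 were higher, with a median log2 fold change of -2.86, while 5 genes of this list were in the set. The lowest adjusted p outside the set, besides ClCG02G004960 and ClCG02G004900, was that of ClCG05G020260, another myb domain protein r1 gene, with 289, 409 and 349 counts in drought and 1233, 1452 and 1843 in control (log2 fold change -2.42 ± 0.26, adjusted p = 0.00490 by edgeR). Unlike its namesake ClCG05G019570 in the set, it was read at 289 counts or more in each drought library.

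Of 7 abscisic acid receptor genes with a description, the limits took 2, PYR1 in the set and PYL4, which was left out of it by name. The other 5 were lower, with a median log2 fold change of -3.43. ClCG10G022420, also named PYR1, had 172, 185 and 72 counts in drought and 2293, 1038 and 3863 in control (log2 fold change -4.43 ± 0.62, adjusted p = 0.00883 by edgeR). ClCG10G001620, a further PYR1 gene, had 694, 833 and 1007 counts in drought and 1941, 1855 and 1599 in control (log2 fold change -1.38 ± 0.23, adjusted p = 0.0138 by edgeR). The receptors thus ranged over genes that were silent, reduced to 72 to 185 counts, and read at 694 counts or more in every drought plant. For ClCG10G001620 the call was lost without control replicate 1 (adjusted p = 0.0557 by edgeR) and without drought replicates 1 and 2 (adjusted p = 0.0704 and 0.0763 by edgeR).

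ERF and WRKY transcription factor genes were lower in 28 of 47 tested genes outside the set, and 1 was higher, with a median log2 fold change of -2.50, while 1 gene of this list was in the set. ClCG07G016980, described as Ethylene-responsive transcription factor 3, had 55, 208 and 105 counts in drought and 4323, 4777 and 4008 in control (log2 fold change -5.47 ± 0.51, adjusted p = 0.00373 by edgeR). The WRKY gene ClCG03G008170 had 68, 74 and 56 counts in drought and 324, 215 and 311 in control (log2 fold change -2.42 ± 0.31, adjusted p = 0.00709 by edgeR). ClCG07G014980, described as Ethylene-responsive transcription factor 5, had 42, 31 and 35 counts in drought and 206, 145 and 163 in control (log2 fold change -2.55 ± 0.35, adjusted p = 0.00833 by edgeR). Its call was lost without drought replicate 3 (adjusted p = 0.0512 by edgeR). No gene of the set was in the lists of defence proteins, cell wall proteins or lipid transfer proteins, which were taken by words in the descriptions. The words for defence were thaumatin, glucanase, chitinase and pathogenesis, so the wound-induced gene ClCG04G006570 and the germin-like gene ClCG03G015130 were not taken. In these lists 16 of 27, 40 of 73 and 6 of 10 tested genes were lower, the extensin-like gene that was left out of the set not counted. In those lists 3, 8 and 1 genes were higher, and the median log2 fold changes were -2.85, -2.74 and -2.60. The summed level of the lipid transfer list went the other way, at 3263, 6740 and 4494 CPM in drought replicates 1, 2 and 3 and 2839, 2800 and 1653 CPM in control replicates 1, 2 and 3.

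The list counts moved with single libraries, as did the count over the whole table. Without control replicate 1, the MYB and RADIALIS list outside the set had 5 lower genes, the receptors 1, the ERF and WRKY list 5, the defence list 7, the cell wall list 15 and the lipid transfer list 3, beside 2.43% of all tested genes. Leaving out a drought plant gave 3 to 5, 1 to 2, 4 to 7, 4 to 6, 5 to 10 and 2 to 3 genes for the same lists, beside 0.974% to 1.82% of all tested genes. The counts without control replicate 2 were 18, 5, 37, 21, 57 and 6, beside 14.8%, and those by DESeq2 were 21, 5, 43, 23, 60 and 8, beside 15.2%. These shares are over all tested genes, whereas the lists hold only genes with a description, mostly ones that the study itself had called. With all libraries, 1156 of 3371 tested genes with a description were lower by edgeR. List counts above the shares over all tested genes are thus built in and are not read as a result.

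Markers of other cell types were set beside the results. Trichome-named genes summed to 25.8 to 62.9 CPM in drought and to 176 to 475 CPM in control, with 4 of 6 lower by edgeR. The phloem gene with a description had 29.3 to 51.2 CPM in drought and 80.9 to 179 CPM in control and was lower. Genes of dividing cells summed to 907 to 958 CPM in drought and to 744 to 1014 CPM in control. Of these, 6 of 24 tested genes were lower and 5 higher, and of the 8 photosynthetic genes tested 1 was lower. All these markers were taken from genes with a description, of which 1156 of 3371 tested were lower and 862 higher. None of the genes with a description named guard cells. The part of any cell type in the loss of the 22 transcripts was not tested.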

How the data were processed

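Leaf RNA-Seq libraries of 3 drought and 3 control plants were grouped by the sample labels. The authors deposited raw read counts per gene, size-factor-scaled counts (a signal), FPKM values (counts scaled by gene length and library total), gene positions and lengths, and log2 fold changes and p-values of their own comparison, which were not used. The paper names TopHat and HTSeq for the counts, whereas the submitters' processing notes name fastp, HISAT2 2.1.0, featureCounts and DESeq2. The kit did not mark strand. The drought columns carry another prefix than the drought labels and were matched by the prefix left over and by replicate number.

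Counts were tested with edgeR 4.0.16 in R 4.3.3 (quasi-likelihood test, TMM scaling, filterByExpr at a minimum count of 10 and minimum total of 15, condition as the only factor, two-sided, Benjamini-Hochberg adjustment over 16318 genes, threshold 0.05). The common dispersion was 0.172, and SE was taken as the fitted log2 value divided by the root of F. Code was tested on simulated data. CPM use TMM-scaled totals. No 2 libraries of the same condition were alike within sampling noise (lowest chi-square per degree of freedom 42.9). Alternatives were DESeq2 1.42.0, size factors, library totals, no filter, a replicate block, leaving out each library, and other limits of the rule. The genes of the set and the lists (MYB and RADIALIS, abscisic acid receptors, defence proteins, cell wall, lipid transfer, ERF and WRKY, and markers of photosynthetic cells, guard cells, phloem, trichomes and dividing cells) were chosen with earlier results of these data known. Lists were taken by words in the study's gene descriptions, and the cell wall list also took hydroxyproline-rich late embryogenesis abundant glycoproteins. Named were all genes of the set, neighbours next to its chromosome 2 pair and the genes of lowest adjusted p in each family list, of which those of the families in the set are given. Neighbours are the nearest annotated genes of the table by start position.

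The pairing of libraries by replicate number was checked before calls were compared. Deviations from the group means correlated at 0.148, 0.430 and 0.130 for numbers 1, 2 and 3, each above the bound of 0.1, so the replicate block treats equal numbers as pairs, although no source names a shared block and the correlation of control replicate 3 was higher with drought replicate 1 (0.303). No sequences were printed because no reference was used here.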

Additional observations from a re-analysis of the deposited data

How the results depend on the processing

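A drought limit of 10 took 38 genes, a control limit of 10 took 41, and leaving out each library in turn took 25 to 42. These settings only loosen the rule, so they take all 22 genes by construction. TMM-scaled counts, which can drop genes, took 24 genes, with all 22 among them. Of the 22 genes, a drought total of 0 kept 9 and a control limit of 50 counts kept 6. DESeq2 called 2485 genes lower and 1635 higher in place of 1319 and 866 by edgeR, and scaling by library totals gave 858 lower. Leaving out 1 library gave 164 to 2473 genes lower and 150 to 1884 higher, with the highest numbers without control replicate 2 and the lowest without drought replicate 3. Over the same settings 8 to 22 of the 22 genes, 3 to 12 neighbours and 28 to 153 genes of the described lists, genes of the set included (121 with all libraries), were lower, and 2 to 19 genes of those lists (15 with all libraries) were higher. DESeq2 gave 26 higher genes in the lists. Among neighbours, 1 was higher by DESeq2 and 1 with library totals, against 0 otherwise.

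With the replicate block, which pairs libraries of the same number, 1505 genes were lower and 829 higher, and 21 genes of the set, 7 neighbours and 139 genes of the lists were lower. When a control library was left out, median control CPM was 3.94 to 5.00 (4.49 with all libraries), and the median CV was 33.2% without control replicate 2 and at most 51.8% otherwise (53.5% with all libraries). The cause of these differences was not tested. Control counts of 20 to 633 limit the precision of each level, and drought counts of 0 to 5 allow no order among the 22 genes in drought.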
